A study of Mus musculus with 30 samples.

Results

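The genes of the proteasome, its inducible subunits and the transporters that carry its peptides were followed in CD11b+ cells. They were chosen by name, not by their values. All symbols of the Psma, Psmb, Psmc, Psmd, Psme, Psmf and Psmg series were taken, with the transporter genes Tap1 and Tap2 and the loading factor Tapbp. Of the 18194 genes measured by a probe set with 1 gene symbol, 50 met this rule. Psme2 gave no value, because its probe set is shared with Psme2b. By role the genes were 7 of the alpha ring, 7 of the beta ring, 3 inducible beta subunits, 6 ATPases of the 19S base, 14 other Psmd genes of the 19S particle, 4 activators and inhibitors (Psme1, Psme3, Psme4 and Psmf1), 4 assembly chaperones, 3 of peptide transport and 2 tissue-restricted subunits (Psma8 and Psmb11).

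The study asked how the CD11b+ cells that accumulate with tumors, known as myeloid-derived suppressor cells or MDSC, compare with CD11b+ cells of healthy spleen, and how MDSC grown from marrow compare with fresh marrow. The cells were enriched with antibody-coated magnetic beads and each of 10 groups has 3 Affymetrix arrays. In BALB/c mice they came from the spleen and from the tumor infiltrate of mice bearing C26-GM, a colon carcinoma that makes the growth factor GM-CSF, from the infiltrate of the mammary carcinoma 4T1, and from the spleen of healthy mice. In C57BL/6 mice they came from the infiltrates of EL-4, a T cell lymphoma, and MCA203, a fibrosarcoma, and from the spleen of healthy mice. BALB/c marrow was kept for 4 days with GM-CSF plus IL-6 or GM-CSF plus G-CSF, and CD11b+ cells of fresh BALB/c marrow were its reference. The healthy C57BL/6 arrays carry that strain in their titles and strain field but BALB/c in their free-text fields, and they were used as C57BL/6. Age and sex are not given, and nothing says that arrays of a group came from separate animals, so p-values measure only the spread between these arrays. No tumor infiltrate has a healthy counterpart of the same organ, so tumor and organ cannot be told apart.

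The proteasome is a barrel of alpha and beta rings that degrades proteins marked with ubiquitin, and a 19S cap of ATPases and other subunits unfolds and feeds them in. Interferon gamma and related signals replace the 3 catalytic beta subunits Psmb5, Psmb6 and Psmb7 with Psmb8, Psmb9 and Psmb10, which gives the immunoproteasome. It cuts peptides that suit MHC class I, and Tap1 and Tap2 pump them into the endoplasmic reticulum, where Tapbp (tapasin) helps to load them. Myeloid cells carry both forms of the particle.

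The data are log2 expression values after RMA, a method that corrects background, normalizes arrays together and summarizes the probes of a gene, so 1 unit is a 2-fold difference. Array medians lay between 4.85 and 5.15, and the number of arrays limits the precision. Markers of myeloid cells (Itgam, which encodes CD11b, Ptprc, Lyz2, Csf1r, Fcgr3 and Itgb2) averaged between 11.55 and 12.498 on every array, above the array medians. The 6 C26-GM arrays had Xist at 5.15 to 6.47, against 10.06 to 11.12 for the remaining 24, and the Y-linked Eif2s3y at 8.11 to 8.95, against 2.16 to 2.698, so markers of sex differ between the C26-GM and healthy groups too. Replicate 3 of C26-GM tumor stands apart, with an actin 3′ less 5′ signal of 2.42, against 0.01 to 0.68 on the other arrays. Among the cultures, replicates 1 and 2 with IL-6 and replicates 1 and 3 with G-CSF had a narrow spread of values (interquartile range 2.54 to 2.60), and the other 2 culture arrays had 3.37 and 3.28.

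Start-site sequences are shown first for the genes whose regulation the comparisons bear on. Psmb9 and Tap1 lie head to head on chromosome 17 with 225 bases between their start sites, so 1 window of Psmb9 covers the start of both. Psmb8 and Psme1 are shown as examples of interferon-inducible genes, and Psmb5 of the standard catalytic subunits, and they need not be typical of these classes. The windows run from 250 bases before to 50 after each start site in RefSeq on GRCm38.p6. They are chr17:34187281-34187580 on the minus strand for Psmb9, chr17:34197945-34198244 on the plus strand for Psmb8, chr14:55578244-55578543 on the plus strand for Psme1 and chr14:54617946-54618245 on the minus strand for Psmb5. Capitals mark matches, on either strand, to GAAANNGAA (core of the interferon-stimulated response element), TTCNNNGAA (core of the gamma-activated site) or TGANNNNGC (core of the antioxidant response element, which Nfe2l1 and Nfe2l2 bind).
Psmb9: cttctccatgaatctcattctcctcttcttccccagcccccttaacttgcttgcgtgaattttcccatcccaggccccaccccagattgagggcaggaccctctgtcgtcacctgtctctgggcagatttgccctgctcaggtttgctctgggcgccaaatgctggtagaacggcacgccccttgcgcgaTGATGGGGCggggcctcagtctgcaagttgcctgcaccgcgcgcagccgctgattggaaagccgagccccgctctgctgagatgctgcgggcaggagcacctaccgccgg
Psmb8: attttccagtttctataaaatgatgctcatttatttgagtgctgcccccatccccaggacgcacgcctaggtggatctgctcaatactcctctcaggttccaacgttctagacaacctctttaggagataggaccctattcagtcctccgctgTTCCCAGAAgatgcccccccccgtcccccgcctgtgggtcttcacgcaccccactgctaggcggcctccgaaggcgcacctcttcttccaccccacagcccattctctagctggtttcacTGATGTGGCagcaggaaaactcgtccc
Psme1: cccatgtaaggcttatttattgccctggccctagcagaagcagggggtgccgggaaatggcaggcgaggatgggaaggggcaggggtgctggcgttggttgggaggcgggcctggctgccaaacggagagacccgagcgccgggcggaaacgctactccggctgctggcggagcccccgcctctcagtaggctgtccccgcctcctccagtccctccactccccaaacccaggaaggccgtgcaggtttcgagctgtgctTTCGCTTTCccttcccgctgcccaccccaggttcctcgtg
Psmb5: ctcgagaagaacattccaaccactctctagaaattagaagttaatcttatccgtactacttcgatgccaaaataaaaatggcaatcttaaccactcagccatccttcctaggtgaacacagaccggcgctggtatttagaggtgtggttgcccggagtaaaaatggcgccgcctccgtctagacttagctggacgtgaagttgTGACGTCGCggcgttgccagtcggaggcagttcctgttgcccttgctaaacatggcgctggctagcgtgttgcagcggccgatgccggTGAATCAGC

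Counted from the start site, the capitals are an antioxidant core at -60 in Psmb9, a gamma-activated core at -97 and an antioxidant core at 23 in Psmb8, an interferon core at 10 in Psme1, and antioxidant cores at -47 and 41 in Psmb5, none of which overlap. Windows were found for 41 of the 50 genes, 43 windows in all. The interferon core stood in 7 of the 43 windows, against 8.56% of 32851 windows of all genes. The gamma-activated core stood in 3, against 8.30%, and the antioxidant core in 24, against 41.3%. None of the 3 windows of the inducible beta genes held the interferon core. Only 1 of these 3, that of Psmb8, held the gamma-activated core, and that of Psmb10, not shown, held none of the cores. All 4 windows found for the standard beta ring held the antioxidant core, while Psmb1, Psmb2 and Psmb7 had no window.

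The counts of changed genes split the tumor models. MCA203 infiltrate had the most, with 30 of 50 genes higher than healthy C57BL/6 spleen (60%) and 0 lower, where 13.2% of all genes were higher and 10.7% lower (limma over all genes, adjusted p under 0.05). In EL-4 infiltrate 18 rose (36%) and 0 fell, against 15.2% higher and 9.93% lower over all genes. In 4T1 infiltrate 20 rose (40%) and 0 fell against healthy BALB/c spleen, where all genes gave 14.2% and 11.2%. C26-GM tumor did not share this. In C26-GM spleen a larger share rose than over all genes, but other genes fell. In C26-GM tumor 6 rose (12%) and 7 fell (14%), close to the 12.7% and 14.9% of all genes. In C26-GM spleen 6 rose (12%) and 3 fell (6%), where 6.86% of all genes were higher and 7.57% lower. The median difference of the 50 genes was 0.62 in MCA203, 0.42 in EL-4, 0.43 in 4T1, -0.14 in C26-GM tumor and 0.05 in C26-GM spleen, where the median of all genes lay at 0.14, 0.02, -0.01, 0.11 and 0.09 in the same order. The changes are small. Only 2 of the EL-4 genes, 1 of the 4T1 genes, 1 of the MCA203 genes and 0 of the C26-GM genes changed 2-fold or more. The BALB/c models share 1 set of healthy arrays, as do the C57BL/6 models.

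The spread that these tests use comes from all 30 arrays, and the culture arrays widen it. Without the 6 culture arrays 39 rose and 0 fell in MCA203 (20.6% and 14.1% of all genes), 30 and 0 in EL-4 (20.1% and 14%), and 29 and 0 in 4T1 (18.9% and 14.9%). In that fit 12 rose and 11 fell in C26-GM tumor, near the 20.9% and 19.5% of all genes, and 12 rose and 6 fell in C26-GM spleen (12.4% and 11.1% of all genes). Leaving out healthy C57BL/6 replicate 2 lowered the MCA203 count to 18, and leaving out healthy BALB/c replicate 2 lowered those of 4T1 to 13 and of C26-GM spleen to 4. Without C26-GM tumor replicate 1 the C26-GM tumor counts were 4 and 4. Centring each array on 8 housekeeping genes moved the median of all genes by 0.15 in C26-GM tumor and by -0.20 in EL-4. The split then became 14 higher and 3 lower in C26-GM tumor and 15 higher and 0 lower in EL-4.

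**Figure D1:**
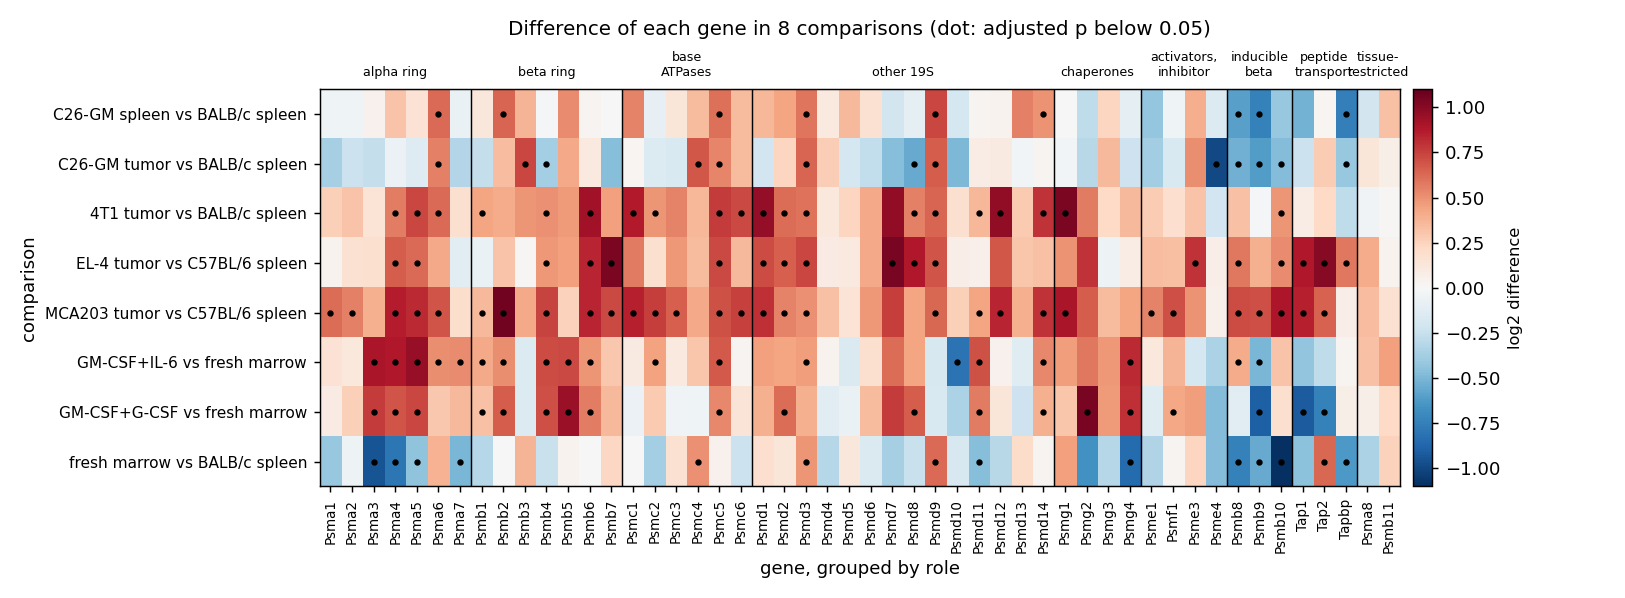
Log2 difference of each of the 50 genes (columns, grouped by role) in 8 comparisons (rows), red for higher and blue for lower in the first named group, with a dot where the adjusted p was under 0.05. The rows of 4T1, EL-4 and MCA203 hold 20, 18 and 30 dots, all on higher genes, while the inducible beta and peptide transport columns of both C26-GM rows and of fresh marrow are mostly blue.

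Of the 3 inducible beta subunits, 2 fell in C26-GM spleen (not Psmb10) and 3 in C26-GM tumor, 1 rose in 4T1 (Psmb10), 2 rose in EL-4 (not Psmb9) and 3 rose in MCA203. Psmb8, which takes the place of Psmb5, read 9.97, 10.07 and 10.19 in C26-GM spleen and 10.003, 10.19 and 10.26 in C26-GM tumor, against 10.60, 10.70 and 10.73 in healthy BALB/c spleen. In 4T1 infiltrate it read 11.01, 10.99 and 10.99. None of these tumor arrays overlapped the healthy ones, C26-GM arrays being lower and 4T1 arrays higher. Psmb8 fell by 0.60 ± 0.15 in C26-GM spleen (log2 difference ± SE, n = 3 each, adjusted p = 0.00733) and by 0.53 ± 0.15 in C26-GM tumor (adjusted p = 0.0107). The 4T1 difference of 0.32 ± 0.15 did not pass (adjusted p = 0.136), and passed without the culture arrays (adjusted p = 0.0261). EL-4 infiltrate read 11.54, 11.35 and 11.57 and MCA203 infiltrate 11.62, 11.57 and 11.69, against 10.99, 10.68 and 11.07 in healthy C57BL/6 spleen. Psmb8 rose by 0.58 ± 0.15 in EL-4 (adjusted p = 0.00556) and by 0.71 ± 0.15 in MCA203 (adjusted p = 0.000816), again without overlap.

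Psmb9, the counterpart of Psmb6 whose start lies head to head with that of Tap1, read 9.48, 9.51 and 9.56 in C26-GM spleen and 9.35, 9.75 and 9.84 in C26-GM tumor, against 10.24, 10.23 and 10.31 in healthy BALB/c spleen. It fell by 0.74 ± 0.17 (adjusted p = 0.00262) and by 0.61 ± 0.17 (adjusted p = 0.00723) in these groups, which did not overlap healthy spleen. In 4T1 infiltrate Psmb9 read 10.22, 10.28 and 10.20, overlapping the healthy arrays, with a difference of -0.03 ± 0.17. In MCA203 infiltrate it read 11.04, 10.87 and 11.23, against 10.36, 10.28 and 10.36 in healthy C57BL/6 spleen, a rise of 0.71 ± 0.17 (adjusted p = 0.0022). EL-4 arrays, at 10.79, 10.61 and 10.77, all lay above healthy ones, but the difference of 0.39 ± 0.17 missed the threshold (adjusted p = 0.1). It passed without the culture arrays (adjusted p = 0.0118).

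Psmb10, the counterpart of Psmb7, read 9.24, 9.62 and 9.80 in C26-GM spleen, 9.35, 9.59 and 9.57 in C26-GM tumor and 10.45, 10.44 and 10.49 in 4T1 infiltrate, against 9.93, 9.88 and 10.12 in healthy BALB/c spleen. It fell by 0.47 ± 0.17 in C26-GM tumor (adjusted p = 0.0328) and rose by 0.48 ± 0.17 in 4T1 (adjusted p = 0.03), and the difference of -0.42 ± 0.17 in C26-GM spleen did not pass (adjusted p = 0.0942, or 0.0293 without the culture arrays and 0.0443 without C26-GM spleen replicate 3). All C26-GM arrays lay below and all 4T1 arrays above the healthy ones. In EL-4 infiltrate it read 10.66, 10.51 and 10.94 and in MCA203 infiltrate 11.13, 10.999 and 11.10, against 10.33, 9.96 and 10.27 in healthy C57BL/6 spleen. It rose by 0.52 ± 0.17 (adjusted p = 0.021) and by 0.89 ± 0.17 (adjusted p = 0.000161), with no overlap.

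Of these calls, those of MCA203 for the 3 inducible subunits and those of C26-GM spleen for Psmb8 and Psmb9 held with any 1 array left out. The 4T1 call for Psmb10 was lost on leaving out any of 5 of the 6 arrays, healthy replicate 3 being the exception (adjusted p 0.0618 to 0.113), and the C26-GM tumor call for it on leaving out healthy replicate 1 or 3 or tumor replicate 1 or 3 (0.0511 to 0.129). Without C26-GM tumor replicate 1 the adjusted p was 0.0527 for Psmb8 and 0.0599 for Psmb9. In EL-4, leaving out healthy replicate 2 gave 0.0545 for Psmb8 and 0.138 for Psmb10, and leaving out EL-4 replicate 3 gave 0.131 for Psmb10. Psmb10 also lost its call after housekeeping centring in C26-GM tumor and EL-4.

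**Figure D2:**
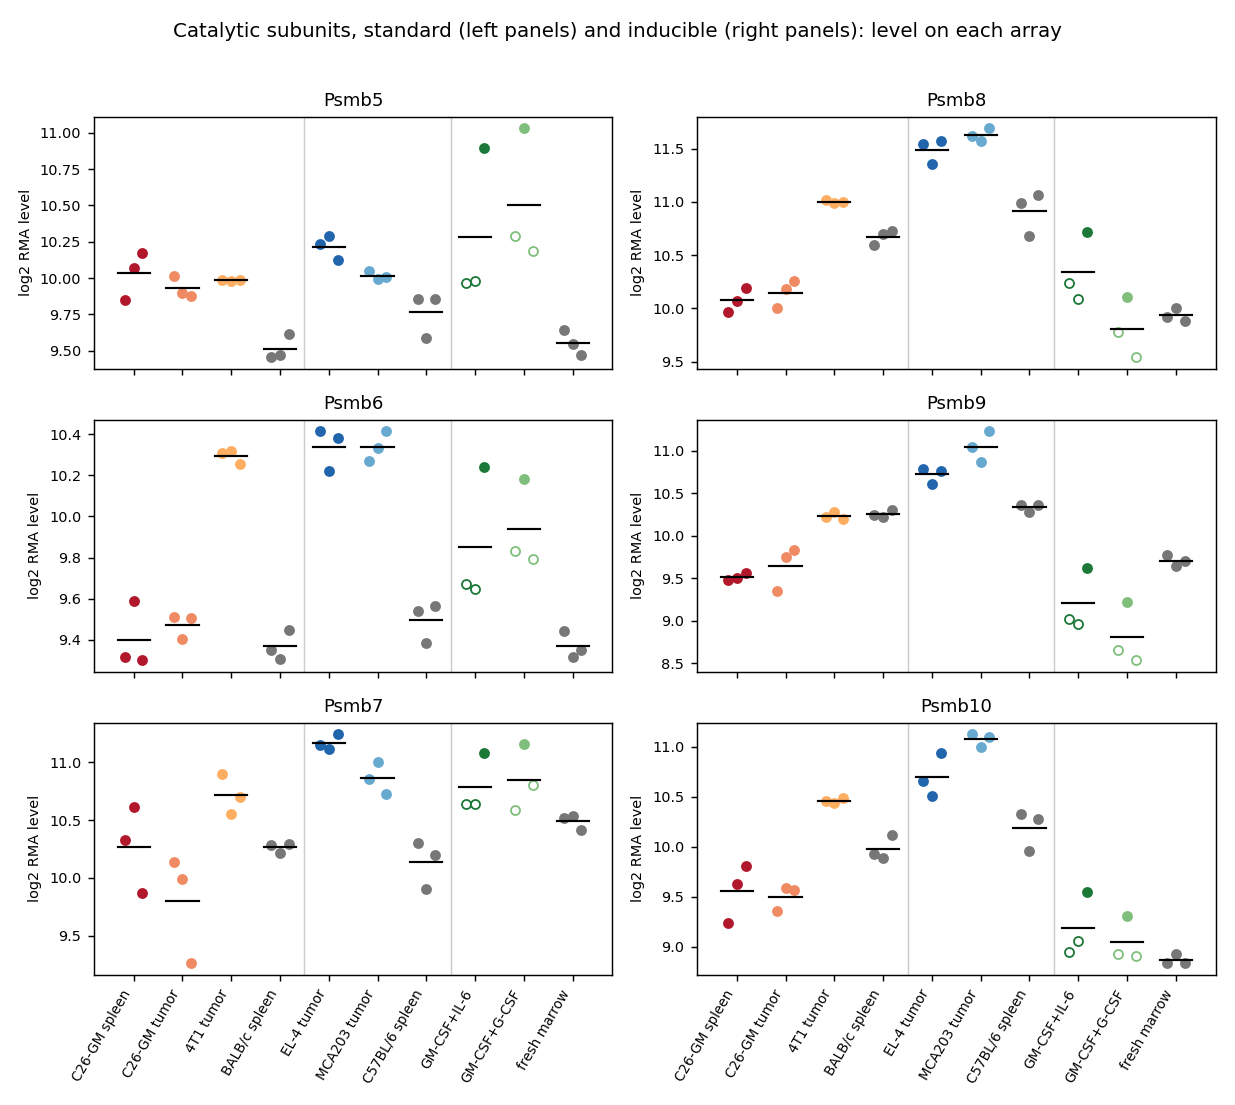
Log2 RMA level of the 3 standard catalytic subunits (left panels) and of the inducible subunits that take their places (right panels) on each of the 30 arrays, with a bar at each group mean. Open circles are the 4 culture arrays with a narrow spread of values. Psmb8 and Psmb9 lie below healthy BALB/c spleen on all 6 C26-GM arrays and above healthy C57BL/6 spleen on all 6 arrays of EL-4 and MCA203, while Psmb6 is raised in 4T1, EL-4 and MCA203.

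Markers of other cell types differed between the tumor and healthy groups as well. The mean level of the 7 T cell markers was 4.89 to 5.41 in C26-GM cells and 4.83 to 4.897 in 4T1 infiltrate, against 6.15 to 6.27 in healthy BALB/c spleen. They averaged 7.53 to 7.73 in EL-4 and 7.46 to 7.83 in MCA203 infiltrate, against 5.75 to 6.01 in healthy C57BL/6 spleen. Of these markers 5 rose in EL-4, 5 rose and 1 fell in MCA203, 4 fell in C26-GM spleen, 5 fell in C26-GM tumor and 5 fell in 4T1. Natural killer markers fell in all C26-GM comparisons with healthy spleen (6 of 6), in 4T1 (5 of 6), and 3 of 6 rose and 1 fell in EL-4 and 2 rose in MCA203. B cell markers fell in every tumor group, 4 of 5 in C26-GM spleen, C26-GM tumor, 4T1 and EL-4 and 5 of 5 in MCA203. Their mean level was 6.74 to 6.89 in EL-4 and 5.08 to 5.33 in MCA203, against 8.45 to 8.74 in healthy C57BL/6 spleen. In 4T1 Psmb10 passed as higher, Psmb8 and Psmb9 did not pass, and most markers of the T, B and natural killer lists were lower. Epithelial and fibroblast markers rose in 4T1 (5 of 6 and 6 of 6), EL-4 (5 of 6 and 5 of 6) and MCA203 (3 of 6 and 4 of 6). The part of these cells in the proteasome results was not tested, and in bulk samples fewer cells of a type and less RNA per cell cannot be told apart.

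Ifng, the cytokine that induces the immunoproteasome, also differed by model. It read 9.37, 9.70 and 10.07 in EL-4 and 8.01, 8.96 and 8.81 in MCA203 infiltrate, against 3.69, 3.75 and 2.99 in healthy C57BL/6 spleen, and passed with fitted differences of 6.23 and 5.12. In C26-GM tumor it read 2.95, 2.68 and 2.60 and in 4T1 infiltrate 2.85, 2.76 and 2.78, against 4.21, 3.39 and 4.11 in healthy BALB/c spleen, with fitted differences of -1.16 and -1.11 that passed. The healthy readings of both strains and all these BALB/c readings lie below the array medians, so these sizes are not exact in particular for BALB/c. Irf1, a transcription factor induced by interferon, rose by 0.84 in EL-4 and 0.46 in MCA203 and fell by 0.55 in C26-GM tumor and by 0.75 in C26-GM spleen. Of 14 measured genes of the interferon gamma axis, 9 rose and 2 fell in EL-4 (median 1.38), 7 rose and 4 fell in MCA203 (median 0.69), 4 rose and 5 fell in 4T1 (median -0.22), 1 rose and 6 fell in C26-GM tumor (median -0.43), and 1 rose and 5 fell in C26-GM spleen (median -0.46). All genes gave 15.2% higher and 9.93% lower in EL-4, 13.2% and 10.7% in MCA203, and 14.2% and 11.2% in 4T1. They gave 12.7% and 14.9% in C26-GM tumor and 6.86% and 7.57% in C26-GM spleen. The chemokine gene Cxcl9 changed in each of these 5 comparisons, by 3.30, 3.91, 1.40, -2.34 and -2.39 in the same order.

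Both transporter genes rose in the C57BL/6 models. Tap1 read 10.24, 9.77 and 10.41 in EL-4 and 9.93, 10.25 and 10.15 in MCA203 infiltrate, against 9.23, 9.21 and 9.32 in healthy C57BL/6 spleen. It rose by 0.88 ± 0.25 (adjusted p = 0.0104) and by 0.85 ± 0.25 (adjusted p = 0.014), with no overlap. In C26-GM tumor it read 7.94, 8.43 and 8.73 and in 4T1 infiltrate 8.65, 8.69 and 8.70, against 8.59, 8.69 and 8.52 in healthy BALB/c spleen, and neither difference passed (-0.23 ± 0.25 and 0.08 ± 0.25). C26-GM spleen read 7.83, 7.94 and 8.48, all below healthy spleen, at -0.52 ± 0.25 (adjusted p = 0.202, or 0.0398 without the culture arrays), and a dimmer probe set of the gene gave 0.60 there. The Tap1 calls were lost without EL-4 replicate 3 (adjusted p = 0.0623) and without MCA203 replicate 2 (adjusted p = 0.0571).

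Tap2 read 9.23, 8.97 and 9.29 in EL-4 and 8.74, 8.91 and 8.78 in MCA203, against 8.26, 8.12 and 8.10 in healthy C57BL/6 spleen. It rose by 0.9995 ± 0.18 (adjusted p = 0.000119) and by 0.65 ± 0.18 (adjusted p = 0.00851), and no tumor array reached the healthy range. In the BALB/c models no Tap2 difference from healthy spleen passed (0.02 in C26-GM spleen, 0.28 in C26-GM tumor and 0.22 in 4T1, SE 0.18). By the probe set used, Tapbp rose in EL-4 alone among the tumor groups, at 11.59, 11.52 and 11.73, against 10.98, 11.07 and 11.06 in healthy C57BL/6 spleen (0.58 ± 0.14, adjusted p = 0.00224). In MCA203 it read 10.94, 11.32 and 11.05, which overlapped healthy spleen. It fell by 0.75 ± 0.14 in C26-GM spleen, at 10.25, 9.91 and 10.21 (adjusted p = 0.000294), and by 0.42 ± 0.14 in C26-GM tumor, at 10.25, 10.63 and 10.47 (adjusted p = 0.0256), against 10.87, 10.89 and 10.85 in healthy BALB/c spleen. The tumor call was lost without any 1 of the healthy arrays or tumor replicate 1 (adjusted p 0.0561 to 0.129) and after housekeeping centring.

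Among the activators, Psme1, a subunit of the interferon-inducible 11S ring PA28, rose in MCA203. It read 11.26, 11.29 and 11.35 there and 11.16, 10.91 and 11.17 in EL-4, against 10.77, 10.61 and 10.86 in healthy C57BL/6 spleen. The MCA203 difference was 0.55 ± 0.15 (adjusted p = 0.00901, or 0.0575 without healthy replicate 2) and the EL-4 difference 0.34 ± 0.15 (adjusted p = 0.122). C26-GM spleen lay below healthy spleen at 9.92, 10.11 and 10.09, against 10.44, 10.46 and 10.49, a difference of -0.43 ± 0.15 (adjusted p = 0.066). Without C26-GM tumor replicate 3, which read 10.50 beside 9.76 and 9.99, Psme1 fell by 0.59 in C26-GM tumor (adjusted p = 0.00364). Psme3, which encodes the nuclear PA28 gamma, rose in EL-4 (8.11, 8.60 and 8.14, against 7.55, 7.34 and 7.57, difference 0.80 ± 0.25, adjusted p = 0.0208). That call was lost without EL-4 replicate 2 (adjusted p = 0.12) or healthy replicate 2 (adjusted p = 0.0841). Another probe set of Psme3 gave 1.99 in EL-4 and 1.05 in C26-GM spleen, but -0.28 in MCA203 and -0.36 in 4T1. The probe set used gave 0.40 in C26-GM spleen, 0.49 in MCA203 and 0.32 in 4T1. Psme4, the PA200 activator, fell in C26-GM tumor by 0.99 ± 0.21 (adjusted p = 0.000646), at 8.79, 8.45 and 7.97, against 9.46, 9.503 and 9.22 in healthy BALB/c spleen. The inhibitor gene Psmf1 rose by 0.71 in MCA203, where dimmer probe sets of it gave -0.11, -0.22 and 0.12.

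**Figure D3:**
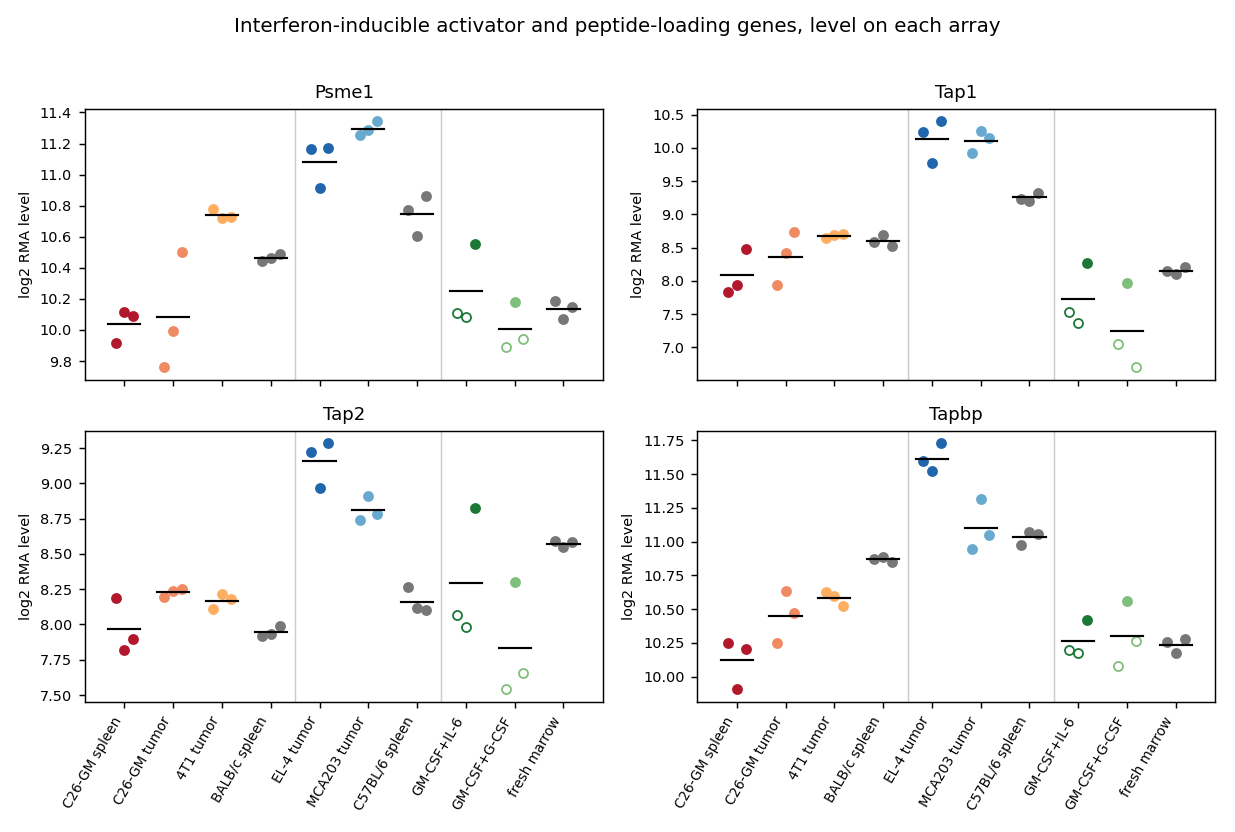
Log2 RMA level of the activator gene Psme1, of Tap1 and Tap2 and of Tapbp on each of the 30 arrays, with a bar at each group mean and open circles for the 4 narrow culture arrays. Tap1 and Tap2 lie above healthy C57BL/6 spleen on all 6 arrays of EL-4 and MCA203, and Tapbp lies below healthy BALB/c spleen on all C26-GM arrays.

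The standard particle rose broadly in 4T1 as well as in the C57BL/6 models. Of 34 constitutive genes of the 20S rings and the 19S particle, 18 rose and 0 fell in 4T1, 12 rose and 0 fell in EL-4, 22 rose and 0 fell in MCA203, 6 rose and 2 fell in C26-GM tumor, and 6 rose and 0 fell in C26-GM spleen. Their medians were 0.49, 0.42, 0.62, -0.05 and 0.16. Over all genes 14.2% were higher and 11.2% lower in 4T1, 15.2% and 9.93% in EL-4, and 13.2% and 10.7% in MCA203. Those shares were 12.7% and 14.9% in C26-GM tumor and 6.86% and 7.57% in C26-GM spleen. All 34 differences were positive in 4T1 and in MCA203, and 32 were in EL-4. Psmb6, which cuts after acidic residues, read 10.31, 10.32 and 10.26 in 4T1, against 9.35, 9.31 and 9.45 in healthy BALB/c spleen, a rise of 0.93 ± 0.14 (adjusted p = 1.05e-05). It rose by 0.84 ± 0.14 in each C57BL/6 model, at 10.41, 10.22 and 10.38 in EL-4 and 10.27, 10.33 and 10.41 in MCA203, against 9.54, 9.39 and 9.56 in healthy C57BL/6 spleen. These groups did not overlap. In C26-GM tumor Psmb6 read 9.51, 9.40 and 9.51 and did not pass (0.11 ± 0.14).

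Psmb7, which cuts after basic residues, read 11.15, 11.11 and 11.24 in EL-4 and 10.86, 10.9997 and 10.73 in MCA203, against 10.30, 9.90 and 10.20 in healthy C57BL/6 spleen. It rose by 1.03 ± 0.20 (adjusted p = 0.000255) and by 0.73 ± 0.20 (adjusted p = 0.00763, or 0.0589 without healthy replicate 2). In 4T1 it read 10.90, 10.55 and 10.70, all above the 10.29, 10.21 and 10.29 of healthy BALB/c spleen, and the difference of 0.45 ± 0.20 did not pass (adjusted p = 0.107). Psmb5, with chymotrypsin-like activity, lay above healthy spleen on every tumor-group array of both strains but passed in none of these comparisons, with differences between 0.25 and 0.52 and adjusted p between 0.079 and 0.402. Without the culture arrays it passed in 4T1 (adjusted p = 0.00102), EL-4 (0.00162), C26-GM tumor (0.00316) and C26-GM spleen (0.000774), and not in MCA203 (0.0694).

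Other genes of the rings and the 19S particle rose by similar amounts. In 4T1 they included Psmd12, a lid subunit, at 9.23, 9.23 and 9.28, against 8.23, 8.20 and 8.38 in healthy BALB/c spleen (0.98 ± 0.26, adjusted p = 0.00546), and the base scaffold Psmd1 (0.96 ± 0.21, adjusted p = 0.000957). The chaperone gene Psmg1 rose there too, at 8.51, 8.45 and 8.49, against 7.504, 7.35 and 7.49 (1.03 ± 0.19, adjusted p = 0.000109). In MCA203 Psmg1 rose by 0.90, the beta subunit Psmb2 by 1.06 ± 0.18 (10.07, 9.96 and 10.01, against 9.06, 8.75 and 9.04 in healthy C57BL/6 spleen, adjusted p = 7.26e-05) and the alpha subunit Psma4 by 0.86. In EL-4 they included, beside Psmb7 and Psmb6, the lid subunits Psmd7 (1.04 ± 0.37), Psmd8 (0.88 ± 0.20) and Psmd3 (0.74 ± 0.17). Psmd7 differed by 0.98 ± 0.37 in 4T1 and did not pass there (adjusted p = 0.0519). Its EL-4 call, at adjusted p = 0.0374, was lost on leaving out any 1 array of either group (0.0536 to 0.12).

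C26-GM cells raised a few constitutive genes. The base assembly chaperone Psmd9 read 7.56, 7.43 and 7.23 in C26-GM spleen and 7.62, 7.37 and 7.02 in C26-GM tumor, against 6.68, 6.58 and 6.76 in healthy BALB/c spleen, and rose by 0.73 ± 0.21 (adjusted p = 0.0153) and 0.66 ± 0.21 (adjusted p = 0.0171). In C26-GM spleen Psmb2 rose by 0.64 and the alpha subunit Psma6 by 0.63, and in C26-GM tumor Psmb3 rose by 0.73 and the ATPase gene Psmc4 by 0.68. The lid gene Psmd8 fell by 0.55 and the beta gene Psmb4 by 0.38 in C26-GM tumor. Several of these rest on single arrays. Without C26-GM tumor replicate 3 the adjusted p was 0.118 for Psmb3, 0.062 for Psmc4, 0.428 for Psmd8 and 0.0514 for Psmb4, and the last 2 were also lost without healthy replicate 1 (0.0996 and 0.0534). Psmd8 was lost without healthy replicate 2 or 3 as well (0.0593 and 0.131), and Psmb4 without tumor replicate 2 (0.0584). In C26-GM spleen Psma6 and Psmb2 were lost without replicate 2 (0.0588 and 0.104) and Psmb2 also without healthy replicate 2 (0.0857). Psmd9 was lost without healthy replicate 2 (0.0689 in spleen and 0.0648 in tumor), and without replicate 1 of either C26-GM group (0.0705 and 0.094). In C26-GM tumor another probe set of Psmb3 gave -0.04 and one of Psmb4 gave 0.38, opposite in sign to the values above. Dimmer probe sets of Psmd9 gave 0.11 and -0.36 in C26-GM spleen and -0.04 and 0.08 in C26-GM tumor. A probe set of Psma6 with a similar average level gave 0.15 in C26-GM spleen.

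Between the organs of C26-GM mice the genes differed little. In tumor against spleen 0 rose and 4 fell (8%), near the 5.63% higher and 8.55% lower of all genes. Psme4 fell by 0.84 ± 0.21, Psmd14, the deubiquitinase of the 19S lid, by 0.46 ± 0.13, Psmb1 by 0.39 ± 0.13 and Psmb4 by 0.35 ± 0.12. None of the 4 passed without C26-GM tumor replicate 3 (adjusted p 0.0621 to 0.133), and without replicate 3 of both C26-GM groups the counts were 0 and 0. Leaving out other C26-GM arrays also ended the calls of Psmb1, Psmb4 and Psmd14 (adjusted p 0.0595 to 0.279), while Psmb7 fell without spleen replicate 3 (-0.67, 0.0319) or tumor replicate 1 (-0.64, 0.047). The inducible subunits differed by 0.07 (Psmb8), 0.13 (Psmb9) and -0.05 (Psmb10) with SE between 0.15 and 0.17. Without the culture arrays 1 gene rose and 10 fell (8.6% and 13.7% of all genes), and after housekeeping centring, which moved the median of all genes by 0.23, 5 rose and 1 fell.

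The difference between the strains' tumor effects was tested directly, as the mean of the EL-4 and MCA203 effects less the mean of the C26-GM tumor and 4T1 effects. Of the 50 genes 6 were more raised in the C57BL/6 models and 0 less (12% and 0%), against 4.68% and 3.17% of all genes. They were Psmb7 (0.89 ± 0.25, adjusted p = 0.0208), Psmb9 (0.87 ± 0.21, 0.00669), Psmb8 (0.75 ± 0.19, 0.0105), Psmb10 (0.70 ± 0.20, 0.0294), Tapbp (0.67 ± 0.17, 0.0106) and Psmb4 (0.55 ± 0.14, 0.0139). All 3 inducible subunits were among them. The BALB/c models averaged here were not alike. Psmb7 differed by -0.47 in C26-GM tumor and 0.45 in 4T1, Psmb10 by -0.47 and 0.48, Psmb8 by -0.53 and 0.32, and Psmb4 by -0.38 and 0.50. Psmb9 (-0.61 and -0.03) and Tapbp (-0.42 and -0.28) were negative in both. Tap1 had the largest difference of all, 0.95 ± 0.31, but did not pass (adjusted p = 0.0637), and it passed without C26-GM tumor replicate 3 (0.0357) or EL-4 replicate 2 (0.0393). For Psmb5 the difference was -0.09 ± 0.24. Without healthy C57BL/6 replicate 2 only Psmb9 and Tapbp passed. Without healthy BALB/c replicate 1 or 3 the calls of Psmb7 (0.055 and 0.0557) and Psmb10 (0.0558 and 0.11) were lost, as was that of Psmb10 without EL-4 replicate 3 (0.057), and Psme1 passed without C26-GM tumor replicate 3 (0.0187). Housekeeping centring, which moved the median of all genes by -0.15, left 4 genes, without Psmb10 and Psmb4. Without the culture arrays 10 were higher and 0 lower (8.17% and 4.96% of all genes). Strain and tumor type cannot be told apart here, and C26-GM tumor also differs from the other groups of this contrast in markers of sex. In the same contrast 6 of 7 T cell and 6 of 6 natural killer markers were higher, and Ifng differed by 6.81, a size that rests on those low readings, and their part was not tested. Healthy spleens of the strains themselves differed in 0 of 50 genes by limma (1 at an unadjusted p under 0.05), where 1.3% of all genes were higher and 1.25% lower, and in 1 gene, Tap1, without the culture arrays (0.65 ± 0.18, adjusted p = 0.0374).

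Fresh marrow had less of the inducible subunits than spleen. Psmb10 read 8.84, 8.93 and 8.84 in fresh marrow, against 9.93, 9.88 and 10.12 in healthy BALB/c spleen, and fell by 1.11 ± 0.17 (adjusted p = 5.93e-06), more than 2-fold. Psmb8, at 9.92, 10.01 and 9.88, fell by 0.74 ± 0.15, and Psmb9, at 9.78, 9.65 and 9.70, by 0.55 ± 0.17, with no overlap. Tapbp fell by 0.63 ± 0.14, while Tap2 rose by 0.63 ± 0.18, at 8.59, 8.55 and 8.58, against 7.92, 7.93 and 7.99. In all 4 genes rose and 10 fell (8% and 20%), beside 13.8% and 15.1% of all genes, and without the culture arrays 6 rose and 17 fell (20% and 19.3% of all genes). The largest other falls were the alpha subunits Psma3 (0.95 ± 0.16 lower) and Psma4 and the chaperone gene Psmg4 (0.85 ± 0.19 lower). The rises of Psmd9, Psmc4 and Psmd3, between 0.49 and 0.62, were lost on leaving out healthy replicate 1 or 2 or marrow replicate 1 or 2 (adjusted p 0.0552 to 0.104), and those of Psmc4 and Psmd3 also without healthy replicate 3 (0.107 and 0.055) and that of Psmc4 without marrow replicate 3 (0.0961). The fall of Psmb9 was lost without marrow replicate 2 (adjusted p = 0.0502). All 6 natural killer markers and 4 of 7 T cell markers fell as well, and 10 of 14 genes of the interferon gamma axis fell (median -1.18). Their part was not tested.

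In culture the genes of the alpha and beta rings and the assembly chaperones that passed were all higher, while inducible and transport genes were mixed. With GM-CSF plus IL-6, 17 genes rose and 2 fell (34% and 4%), and with GM-CSF plus G-CSF 16 rose and 3 fell (32% and 6%). Over all genes 20.1% were higher and 19% lower with IL-6, and 20.6% and 19.1% with G-CSF. Psmb5 read 9.96, 9.98 and 10.90 with IL-6 and 10.29, 11.03 and 10.19 with G-CSF, against 9.64, 9.54 and 9.47 in fresh marrow, and rose by 0.73 ± 0.20 (adjusted p = 0.00465) and 0.95 ± 0.20 (adjusted p = 0.000401). All culture arrays lay above the fresh ones, the 2 wide arrays highest. Psmb6 rose by 0.48 and 0.57. Of the beta ring 5 of 7 rose with each cocktail. In the 19S particle 5 of 20 rose and 1 fell with IL-6 and 5 rose and 0 fell with G-CSF, and the share that rose was near that of all genes. Of the alpha ring 5 of 7 rose with IL-6 and 3 of 7 with G-CSF, Psma5 by 0.96 ± 0.15 and 0.73 ± 0.15 and Psma4 by 0.88 ± 0.16 and 0.69 ± 0.16. The chaperone gene Psmg4 rose by 0.82 and 0.81, and Psmg2 by 1.04 ± 0.31 with G-CSF. Psmd10, a chaperone of 19S base assembly, fell with IL-6 by 0.81 ± 0.27 (adjusted p = 0.0185), at 6.51, 6.69 and 7.92, against 7.86, 7.88 and 7.82 in fresh marrow, where the wide array overlapped the fresh ones.

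The 3 inducible subunits did not move alike in culture. Psmb9 read 9.03, 8.97 and 9.63 with IL-6 and 8.66, 9.22 and 8.54 with G-CSF, against 9.78, 9.65 and 9.70 in fresh marrow, and fell by 0.50 ± 0.17 (adjusted p = 0.0214) and 0.90 ± 0.17 (adjusted p = 0.000145). All culture arrays lay below the fresh ones, with the wide array of each cocktail nearest to them. Psmb8 rose by 0.41 ± 0.15 with IL-6 (adjusted p = 0.0351), at 10.23, 10.09 and 10.71, and differed by -0.12 with G-CSF, at 9.78, 10.11 and 9.54. Psmb10 passed in neither culture (0.31 and 0.18). Tap1 and Tap2 fell with G-CSF by 0.91 ± 0.25 (adjusted p = 0.0065) and 0.74 ± 0.18 (adjusted p = 0.00215), and with IL-6 differed by -0.43 and -0.28. Psma3 rose by 0.89 and 0.77, but a second, dimmer probe set gave -0.93 with G-CSF. Leaving out 1 array ended the IL-6 calls of Psmb6 (without culture replicate 3, adjusted p = 0.0598), Psmb8 (without culture replicate 3 or fresh replicate 1 or 3, 0.0822 to 0.188), Psmb9 (without culture replicate 1 or 2 or fresh replicate 1 or 3, 0.0502 to 0.134) and Psmd10 (without culture replicate 1 or 2, 0.115 and 0.161), and the G-CSF call of Tap1 (without culture replicate 3, 0.0765). Without IL-6 replicate 3, the wide array, Tap1 (-0.71, 0.021), Tap2 (-0.55, 0.00585), Psme3 (-0.58, 0.0334) and Psme4 (-0.61, 0.0129) fell with IL-6, and Psme4 fell with G-CSF without G-CSF replicate 2 (-0.69, 0.00804) or fresh replicate 2 (-0.60, 0.0464).

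These values depend on which culture arrays are read. On the wide arrays, 1 per cocktail, 35 rose and 0 fell with IL-6 and 28 rose and 1 fell with G-CSF, where all genes gave 17.2% and 8.78%, and 14.7% and 9.18%. On the narrow arrays, 2 per cocktail, 14 rose and 11 fell with IL-6 and 13 rose and 10 fell with G-CSF, where all genes gave 36.5% and 28.1%, and 36.5% and 27.1%. With a term for the narrow arrays 37 rose and 0 fell, and 37 rose and 1 fell, where all genes gave 19% and 11.8% with IL-6 and 18.9% and 11.8% with G-CSF. Psmb5 was higher in each setting, by 0.42 on narrow and 1.35 on wide arrays with IL-6 and by 0.69 and 1.48 with G-CSF. Psmb9 fell on narrow arrays with both cocktails (-0.71 and -1.11). It differed by -0.08 on the wide array with IL-6 and by -0.48 on that with G-CSF. Tap1 fell on narrow arrays (-0.71 and -1.28) and differed by 0.12 and -0.18 on wide ones.

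**Figure D4:**
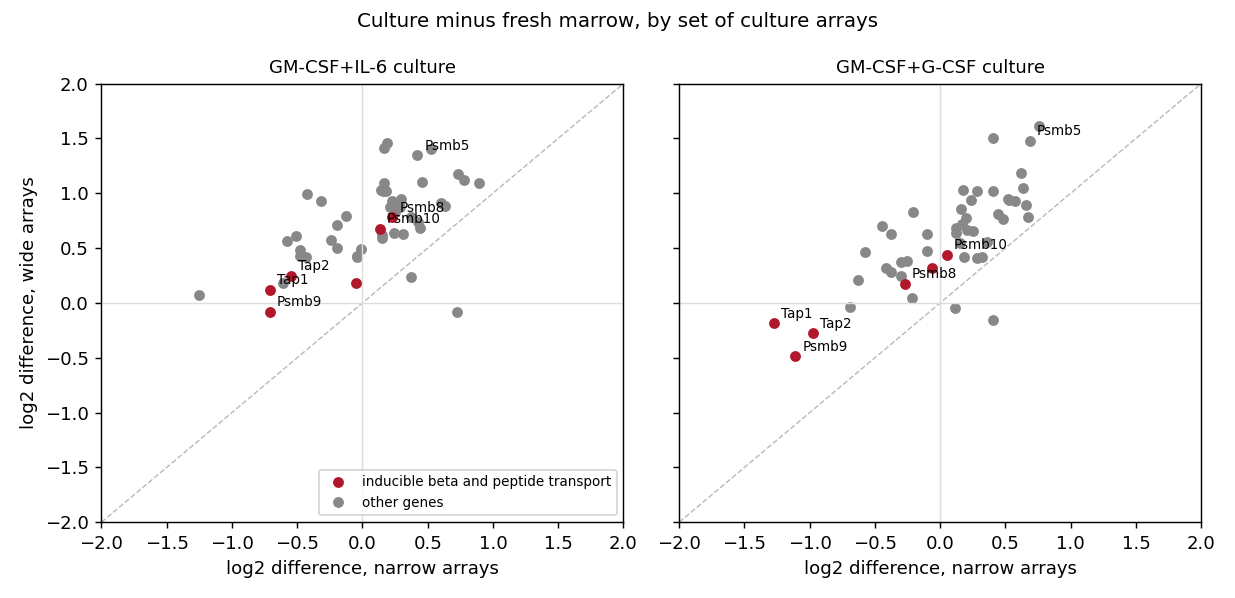
Log2 difference of each of the 50 genes between culture and fresh marrow, on the 2 narrow arrays of a cocktail (horizontal) and on its 1 wide array (vertical), with inducible beta and peptide transport genes in red and a dashed line of equality. In each panel 48 of 50 points lie above the line, and Psmb5 is positive on both axes while Psmb9 is negative on both.

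The cocktails did not differ for any of the 50 genes (0 rose and 0 fell by limma, 4 at an unadjusted p under 0.05), where 0.824% of all genes were higher with IL-6 and 0.418% lower. Psmb8 came nearest, at 0.54 ± 0.15 (adjusted p = 0.0974). With a term for the narrow arrays 3 rose and 1 fell, Psmb8 (adjusted p = 0.00348), Psmb9 (0.40, adjusted p = 0.0359) and Tap2 (0.46, adjusted p = 0.00767) among those that rose. Leaving out G-CSF replicate 2, the wide array, raised Psmb8 (0.68, adjusted p = 0.0139), Psmb9 (0.61, 0.0401), Tap1 (0.85, 0.0458) and Tap2 (0.69, 0.0241), and leaving out IL-6 replicate 2 raised Psmb8 (0.66, 0.0441). Leaving out IL-6 replicate 3 instead lowered Psme3 (-1.04, 0.0103).

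Of 15 measured genes that regulate or serve the proteasome, the share that passed in either direction was near that of all genes in 4T1, EL-4 and MCA203. In 4T1 2 rose and 1 fell, in EL-4 3 and 1, in MCA203 2 and 1, in C26-GM tumor 0 and 2, in C26-GM spleen 0 and 0, and in each culture 5 and 1. In the cultures a larger share rose and a smaller share fell than over all genes. Those shares were 20.1% higher and 19% lower with IL-6, and 20.6% and 19.1% with G-CSF. Usp14, the deubiquitinase bound to the 19S cap, rose by 1.17 in 4T1, 1.14 in EL-4, 1.02 in MCA203, 1.75 with IL-6 and 1.84 with G-CSF. Pomp, the factor that assembles the 20S core, rose by 1.13 and 0.83 in the cultures. Nfe2l1, the transcription factor that drives proteasome genes when the particle fails, passed in none of the 12 comparisons. Of 10 genes of class I loading, 4 rose and 0 fell in EL-4, 3 and 0 in MCA203, 2 and 0 in 4T1, 1 and 5 in C26-GM tumor and 0 and 4 in C26-GM spleen. Over all genes 15.2% were higher and 9.93% lower in EL-4, 13.2% and 10.7% in MCA203, and 14.2% and 11.2% in 4T1. The shares were 12.7% and 14.9% in C26-GM tumor and 6.86% and 7.57% in C26-GM spleen. Erap1, which trims peptides, rose by 1.19 in EL-4, 0.84 in MCA203 and 0.81 in 4T1 and fell by 0.75 in C26-GM tumor. The class I genes H2-K1 and H2-D1 fell by 0.59 each in C26-GM tumor and by 0.83 and 0.63 in C26-GM spleen, and B2m fell by 0.39 in C26-GM spleen. Nlrc5, the transactivator of class I genes, rose by 0.63 in EL-4, 0.60 in MCA203 and 0.70 in C26-GM tumor, and fell by 0.71 in C26-GM spleen. Of 4 ubiquitin-supply genes measured, 2 rose in EL-4, 1 in MCA203 and 1 in C26-GM tumor, 1 fell in C26-GM spleen, and 1 rose and 1 fell in each culture, where Ube2l6 fell by 1.27 and 1.44.

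The tissue-restricted subunits stayed low. Psma8, known from testis, lay between 3.67 and 5.18 and Psmb11, known from thymus, between 3.26 and 4.74 over the 30 arrays, and neither passed in any of the 12 comparisons. Psmb11 passed with IL-6 when replicate 3 was left out (0.72, adjusted p = 0.00385).

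Across the 10 group means, the levels most like those of Psmb9 among the 50 genes were Tap1 (Pearson r = 0.962), Psmb8 (0.92), Psme1 (0.918) and Psmb10 (0.911), and the standard catalytic subunits had 0.414 (Psmb6), 0.182 (Psmb7) and -0.375 (Psmb5). Among the other genes measured the most like were Nid1 (0.976), Ubap2l (0.968), Arhgap29 (0.955), Cd40 (0.954), Irgm1 (0.954), Ifi47 (0.954), Daxx (0.951) and Mbnl2 (0.951). These are descriptions over 10 points that share organs, strains and array sets.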

How the data were processed

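CD11b+ cells were profiled on 30 Affymetrix mouse arrays. The deposited values are log2 expression made with RMA, per the submitters' processing notes, which give no version. No scanner files were used here. Of 45101 probe sets, 34958 carried 1 gene symbol, 932 several and 9211 none in the platform annotation, and where a gene had several, the one with the highest average level across the 30 arrays was used. Of the 50 genes 28 had more than 1 probe set.

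All 18194 genes and 30 arrays entered 1 limma model (R 4.3.3, limma 3.58.1) with 10 groups and Benjamini-Hochberg adjustment within each of 12 comparisons, and passing means adjusted p below 0.05. Data were simulated for the EL-4 comparison over 18194 genes, with 50 genes changed by each size. The model recovered 4% of changes of 0.5 log2, 76% of 1, 74% of -1 and 98% of 2. In the real EL-4 comparison 15.2% of genes were higher and 9.93% lower, so these rates do not carry over exactly. The named genes were the catalytic pairs, activators, transporters and tissue-restricted subunits, the 3 passing genes with the largest rise and fall in each comparison, and up to 4 passing genes of each pathway list, of which the text gives a part. The members, lists and tests were chosen with earlier results of these data known. Promoter windows came from RefSeq (GRCm38.p6). Figures were drawn with Python 3.11.15. Same-numbered arrays were not treated as pairs, and the alternatives tried are in the closing section.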

Additional observations from a re-analysis of the deposited data

Results flagged for a closer look

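The 6 genes whose tumor effects differed between the C57BL/6 models (EL-4 and MCA203) and the BALB/c models (C26-GM tumor and 4T1), by the contrast tested in limma over all genes, are Psmb7 (0.89 on the log2 scale), Psmb9 (0.87), Psmb8 (0.75), Psmb10 (0.70), Tapbp (0.67) and Psmb4 (0.55). Within the BALB/c models the effects were not alike, since Psmb10 differed by -0.47 in C26-GM tumor and by 0.48 in 4T1, Psmb8 by -0.53 and 0.32, Psmb7 by -0.47 and 0.45, and Psmb4 by -0.38 and 0.50. No test of 4T1 against C26-GM tumor was run.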

How the results depend on the processing

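Counts are genes passing of 50, in the order C26-GM spleen, C26-GM tumor, 4T1, EL-4, MCA203, C26-GM tumor against C26-GM spleen, IL-6 culture, G-CSF culture, IL-6 against G-CSF culture, fresh marrow, C57BL/6 spleen against BALB/c spleen, and strain difference, where the main totals were 9, 13, 20, 18, 30, 4, 19, 19, 0, 14, 0 and 6. Only totals that moved by over 1.5 times are given. Quantile normalisation again over all 30 arrays gave 18 in C26-GM spleen, 23 in C26-GM tumor, 29 in EL-4, 12 between C26-GM organs, 35 and 35 in the cultures, 3 between cultures and 11 for the strain difference. A model of only the compared groups gave 14 in C26-GM spleen, 37 in 4T1, 31 in EL-4, 0 between C26-GM organs, 5 with IL-6, 12 with G-CSF, 29 in marrow, 1 between spleens and 11 for the strain difference. Array weights, whose estimate stopped before full convergence, gave 25, 27, 39 and 34 in the first 4, 21 between C26-GM organs, 35 with IL-6 (20 higher and 15 lower), 2 between cultures, 32 in marrow, 5 between spleens and 20 for the strain difference. The mean of all probe sets gave 2 between C26-GM organs and 1 between spleens. Adjusted p below 0.01 gave 5, 4 and 12 in C26-GM spleen, C26-GM tumor and 4T1, 1 between C26-GM organs, 11 with IL-6, 12 with G-CSF, 9 in marrow and 1 for the strain difference. At 2-fold the totals were 0, 0, 1, 2, 1, 0, 0, 1, 0, 1, 0 and 0.

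Alternatives chosen after seeing the data follow. A term for narrow culture arrays gave 37 with IL-6, 38 with G-CSF and 4 between cultures, and the narrow arrays alone gave 2 between cultures. For the wide arrays, 1 per cocktail, no totals are given. Without replicate 3 of both C26-GM groups the total between C26-GM organs was 0. Without culture arrays the totals were 18 in C26-GM spleen, 23 in C26-GM tumor, 30 in EL-4, 11 between C26-GM organs, 23 in marrow, 1 between spleens and 10 for the strain difference.

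Leaving out 1 array at a time, totals ran 4 to 9 in C26-GM spleen, 8 to 12 in C26-GM tumor, 13 to 18 in 4T1, 13 to 17 in EL-4, 18 to 30 in MCA203, 0 to 6 between C26-GM organs, 14 to 21 with IL-6, 16 to 18 with G-CSF, 0 to 4 between cultures, 9 to 12 in marrow, 0 to 0 between spleens and 2 to 8 for the strain difference. The arrays that moved a total by over 1.5 times and are not named in the report are C26-GM spleen replicate 2 and C26-GM tumor replicate 2 (1 each between C26-GM organs), marrow replicate 2 (9 in marrow), and IL-6 replicates 2 and 3 and G-CSF replicate 2 (1, 2 and 4 between cultures). Same-numbered arrays deviated together with correlations between -0.85 and 0.79, and in no comparison did all 3 exceed 0.1. A replicate block gave 2 between C26-GM organs in place of 4 and moved no other total by over 1.5 times. A low-value filter and a trended, robust prior moved no total by over 1.5 times.

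Reversed signs of called values came with other probe sets or arrays, and the cause was not tested. With the mean of all probe sets Psmb4 in C26-GM tumor was 0.0022 and Psma3 with G-CSF -0.0792. Without probe sets that may cross-hybridise Psmb3 in C26-GM tumor was -0.0406, Psmb1 between C26-GM organs 0.14, and Psma3 -0.35 with IL-6 and -0.93 with G-CSF. On the wide arrays Psmd10 with IL-6 was 0.07. Psmd13 had probe sets at -1.24 and 0.63 in C26-GM spleen and at -0.94 and 0.59 in MCA203, and Psmd11 at -0.55 and 0.67 in C26-GM tumor. Over single named genes, 95 calls were lost and 21 gained among 1392 results, each for 1 gene in 1 comparison with 1 array left out.

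After housekeeping centring, the share of all called genes that were higher was 35.5% in place of 47.5% in C26-GM spleen, 59.9% in place of 46% in C26-GM tumor, 38.5% in place of 60.5% in EL-4, 68.8% in place of 39.7% between C26-GM organs, 34.9% in place of 51.5% with IL-6, 37.8% in place of 52% with G-CSF, 55.3% in place of 66.4% between cultures and 40.8% in place of 59.7% for the strain difference.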
